A study of Homo sapiens with 18 samples.

Results

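Of 25373 regions that carried H3K4me3 in at least 1 library of V16D cells, 417 (1.64%) carried both H3K4me3 and H3K27me3 in control cells and no longer did so in cells overexpressing the long non-coding RNA H19. The regions were selected on the peak calls themselves. The 6 H3K4me3 peak lists were merged wherever peaks shared at least 1 base, and a region was called bivalent in a group if at least 2 of the 3 H3K4me3 lists and at least 2 of the 3 H3K27me3 lists of that group had a peak on it. By this rule 1548 regions were bivalent in control cells, of which 1131 were bivalent in both groups and 417 in control cells only. Of the 417 regions, 376 fell under 2 lists for H3K27me3 alone, 24 for H3K4me3 alone and 17 for both marks. Another 306 regions were bivalent in H19 cells only.

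V16D is a castration-resistant prostate cancer (CRPC) line derived from LNCaP. The cells were transduced with a control lentivector (V16D/CTL) or with a lentivector that drives H19 from a CMV promoter (V16D/H19), in biological triplicate, and were cultured in RPMI1640 with 10% fetal bovine serum. H3K4me3 and H3K27me3 were each immunoprecipitated from 3 replicates per group, and the authors called peaks in each of the 12 libraries against its input. Both groups are 1 parental line, so replicates measure the spread between transduced cultures and not between patients or lines, and the H19 RNA level was not measured in these libraries. The starts of all 6 luminal genes examined (KRT8, KRT18, KLK2, KLK3, TMPRSS2 and HOXB13) carried H3K4me3 in 6 of 6 lists. Those of the basal genes KRT5, KRT14 and TP63, of the blood gene PTPRC and of the endothelial gene PECAM1 carried it in 0 of 6, whereas that of the fibroblast collagen gene COL1A1 carried it in 6 of 6. The H3K27me3 lists held between 55060 and 72289 peaks in V16D/CTL and between 56239 and 62879 in V16D/H19.

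H3K4me3 is deposited at the starts of genes that are active or ready to be transcribed. H3K27me3 is written by EZH2, the catalytic subunit of the Polycomb repressive complex PRC2, and marks silenced genes. Promoters that carry both marks are called bivalent and are typical of developmental regulators that are silent but can be switched on, and their resolution to 1 mark accompanies lineage choice. In bulk cells, however, an overlap of peaks can also come from different cells or alleles that each carry 1 mark, and peak calls do not distinguish these.

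Most regions that lost the H3K27me3 call lay at promoters, and most of these were CpG-rich. The 250 bases upstream of RefSeq starts (GRCh38.p14) are printed for 7 of them, 5′ to 3′ on the strand of the gene, with each CG dinucleotide in capitals. BACH2 and BNC2 had some of the largest falls in H3K27me3 peak strength and CpG-dense sequence, and TUBA1A had a comparable fall with fewer CG. ISL1 and ONECUT1 are homeobox genes. NTRK2 and PCDHA4 are shown because their upstream sequence was CpG-poor.
BACH2 (chr6:90296844-90297093, minus strand, 40 CG): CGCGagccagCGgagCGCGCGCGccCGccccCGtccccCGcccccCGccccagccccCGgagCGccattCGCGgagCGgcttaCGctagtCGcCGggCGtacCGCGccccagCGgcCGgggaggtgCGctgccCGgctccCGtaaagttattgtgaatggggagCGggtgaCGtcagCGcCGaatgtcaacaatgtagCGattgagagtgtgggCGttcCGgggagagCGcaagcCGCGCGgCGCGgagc
BNC2 (chr9:16870671-16870920, minus strand, 36 CG): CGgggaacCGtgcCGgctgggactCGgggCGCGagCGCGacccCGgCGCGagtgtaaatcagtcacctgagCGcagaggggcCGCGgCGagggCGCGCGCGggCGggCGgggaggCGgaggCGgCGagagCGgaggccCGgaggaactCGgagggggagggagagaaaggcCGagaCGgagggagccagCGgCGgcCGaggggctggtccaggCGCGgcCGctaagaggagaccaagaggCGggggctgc
TUBA1A (chr12:49189081-49189330, minus strand, 11 CG): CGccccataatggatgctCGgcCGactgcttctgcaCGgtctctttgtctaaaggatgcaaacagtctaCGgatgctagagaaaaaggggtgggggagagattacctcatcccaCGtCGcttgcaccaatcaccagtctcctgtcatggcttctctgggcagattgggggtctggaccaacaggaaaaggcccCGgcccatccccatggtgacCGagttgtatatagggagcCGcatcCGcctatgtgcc
ISL1 (chr5:51383198-51383447, plus strand, 27 CG): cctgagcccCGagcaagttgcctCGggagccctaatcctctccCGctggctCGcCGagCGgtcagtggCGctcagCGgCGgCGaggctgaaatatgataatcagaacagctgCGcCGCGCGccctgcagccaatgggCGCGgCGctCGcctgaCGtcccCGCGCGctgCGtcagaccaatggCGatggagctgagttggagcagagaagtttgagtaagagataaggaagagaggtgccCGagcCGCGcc
ONECUT1 (chr15:52790337-52790586, minus strand, 37 CG): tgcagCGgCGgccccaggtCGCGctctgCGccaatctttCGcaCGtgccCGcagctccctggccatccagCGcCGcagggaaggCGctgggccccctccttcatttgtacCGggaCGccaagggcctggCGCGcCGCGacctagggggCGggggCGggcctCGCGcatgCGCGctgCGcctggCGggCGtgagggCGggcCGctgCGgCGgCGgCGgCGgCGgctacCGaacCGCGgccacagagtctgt
NTRK2 (chr9:84669056-84669305, plus strand, 7 CG): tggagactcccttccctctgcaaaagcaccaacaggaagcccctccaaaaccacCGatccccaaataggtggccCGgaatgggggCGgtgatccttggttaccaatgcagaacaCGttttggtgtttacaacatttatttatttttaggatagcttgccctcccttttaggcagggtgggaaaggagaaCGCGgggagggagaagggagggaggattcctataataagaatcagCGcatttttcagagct
PCDHA4 (chr5:140806818-140807067, plus strand, 5 CG): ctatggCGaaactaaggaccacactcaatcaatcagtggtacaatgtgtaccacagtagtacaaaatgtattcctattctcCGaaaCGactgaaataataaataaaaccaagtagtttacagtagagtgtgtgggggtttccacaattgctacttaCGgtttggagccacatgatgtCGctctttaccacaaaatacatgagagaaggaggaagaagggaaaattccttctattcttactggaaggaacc

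Across the 189 such upstream windows that lay on regions losing H3K27me3, the median was 25 CG per 250 bases and the median GC content 71.6%. The 635 windows on regions bivalent in both groups had a median of 26 CG and 72.0% GC, so the medians of both classes were close. A ratio of observed to expected CG above 0.6 was found in 83.6% of windows on regions losing H3K27me3, in 90.2% on regions bivalent in both groups, in 86.2% of windows on any merged H3K4me3 region and in 60.2% of all 22199 protein-coding windows. CG reads the same on both strands, and at least 1 CG was present in 100% of the windows on regions losing H3K27me3 and in 96.8% of all windows. These shares are descriptions and were not tested.

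Most of the calls lost were of H3K27me3. Of the 1548 regions bivalent in V16D/CTL, 393 (25.4%) fell under 2 lists for H3K27me3 in V16D/H19, and 41 (2.65%) did so for H3K4me3. Genome-wide, 41.8% of the 35295 merged H3K27me3 regions present in V16D/CTL fell under 2 lists in V16D/H19, and 5.72% of the 18284 merged H3K4me3 regions did so. Both shares at bivalent regions were therefore under the share among all regions with the mark. The V16D/CTL lists also covered more of the genome with H3K27me3, at 45.1, 58.8 and 62.2 Mb, than the V16D/H19 lists, at 42.3, 47.5 and 48.4 Mb. When the lists of a mark were shortened to equal numbers of peaks, 339 regions in place of 376 lost H3K27me3 alone. The backgrounds were built by merging the lists of 1 mark, so their regions differ in width from the bivalent ones, and since the regions were chosen on this contrast nothing further is read from it.

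Among the 376 regions losing H3K27me3, the mark went from 3 of 3 lists to 0 of 3 in 54 (14.4%). It went from 3 lists to 1 in 90 regions, from 2 to 0 in 119 and from 2 to 1 in 113 (30.1%), so the last group stood just inside the rule by a single list on each side. Just outside the rule, 77 regions had H3K27me3 in 2 lists of each group and 178 had it in 3 V16D/CTL lists and 2 V16D/H19 lists. The other mark was nearly complete in both groups, with H3K4me3 in 3 of 3 lists at 356 of the 376 regions in V16D/CTL and at 358 in V16D/H19.

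**Figure D1:**
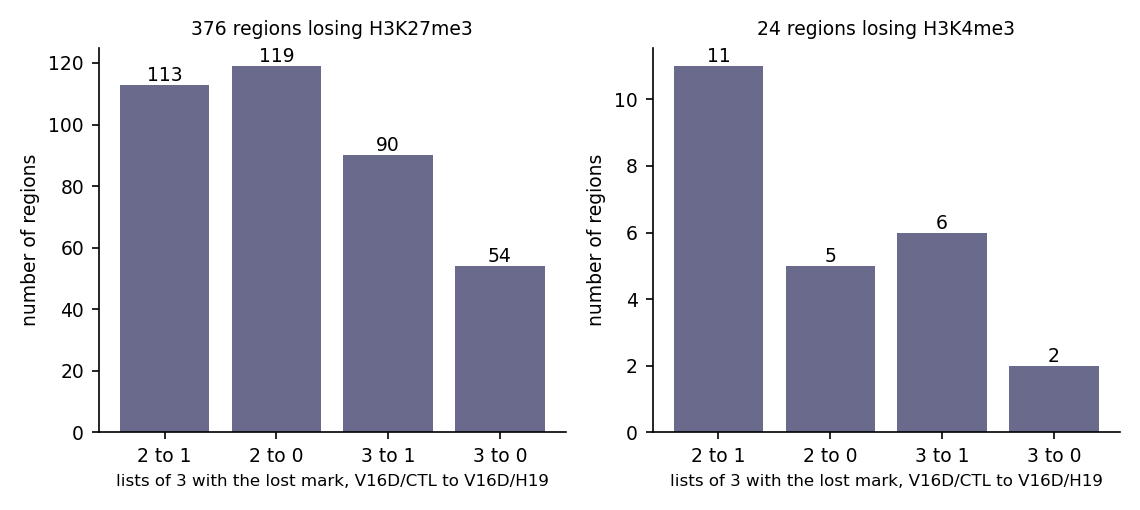
Number of regions (y axis) by how many of 3 lists carried the lost mark in V16D/CTL and then in V16D/H19 (x axis), for the 376 regions losing H3K27me3 (left) and the 24 losing H3K4me3 (right). A complete change from 3 lists to 0 was seen in 54 and 2 regions, respectively.

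In V16D/CTL, where the same calls chose the regions, the H3K27me3 peaks that were lost covered a small part of each region. They were also weaker than those that stayed. In V16D/CTL their median −log10 q (the strength of a peak against input, corrected for the number of sites scanned) was 2.17, 2.16 and 2.20 in replicates 1 to 3. At regions bivalent in both groups it was 3.55, 3.77 and 3.82, and over all H3K27me3 peaks of these lists 1.97, 1.85 and 1.85. Thus the lost peaks were weaker than those at regions that stayed bivalent. The selection itself favours this, because a weak peak falls under 2 lists more easily than a strong peak. H3K27me3 was in only 2 of 3 V16D/CTL lists at 61.7% of regions losing it, against 10.3% of those bivalent in both groups. Whether strength or covered share differed beyond this selection was not tested. At a region the strongest peak was taken, whereas the medians of the lists count every peak. The values therefore do not show whether the lost peaks were stronger than the typical peak of their list. The median fold over input was 3.58, 3.51 and 3.52 at the regions losing H3K27me3, against 4.43, 4.40 and 4.42 at those bivalent in both groups.

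H3K27me3 peaks covered 20.8%, 30.9% and 29.5% of the bases of the 376 regions in the 3 V16D/CTL libraries. In V16D/H19 the covered share was 3.54%, 3.92% and 4.82%, as the rule requires it to be low. At regions bivalent in both groups the share was 59.6%, 66.5% and 65.8% in V16D/CTL against 47.1%, 50.3% and 49.8% in V16D/H19, so covered length was also lower in every V16D/H19 library where the call itself was kept. H3K4me3 covered 83.3%, 81.0% and 80.1% of the 376 regions in V16D/CTL against 86.6%, 87.7% and 80.2% in V16D/H19, with the lowest V16D/H19 library inside the range of V16D/CTL.

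**Figure D2:**
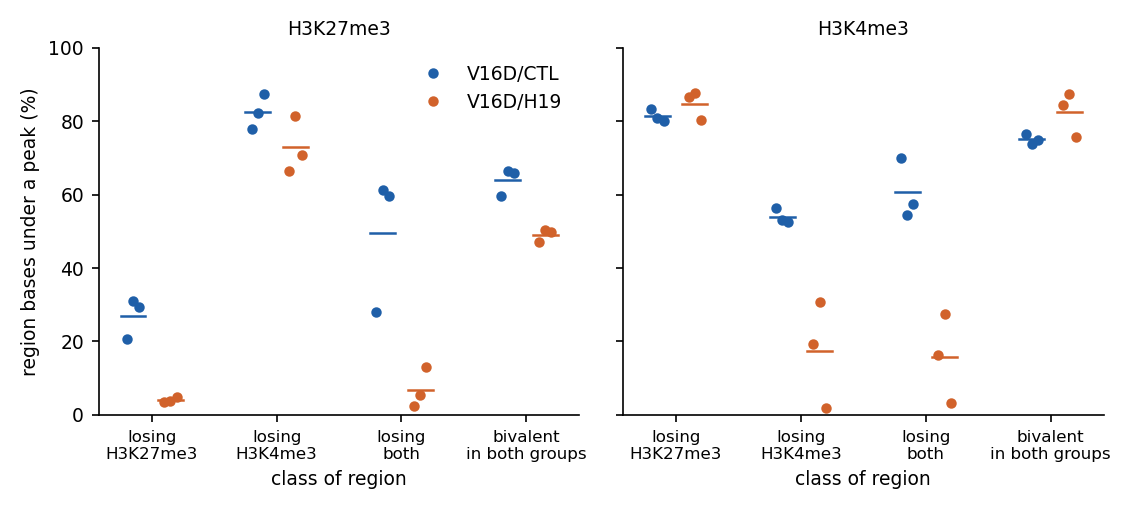
Share of region bases under an H3K27me3 (left) or H3K4me3 (right) peak in each library (points) with the mean of 3 libraries (line), for the 4 classes of region. H3K27me3 at regions losing it went from 20.8 to 30.9% in V16D/CTL to 3.54 to 4.82% in V16D/H19, while H3K4me3 there stayed between 80.1 and 87.7%.

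H3K4me3 itself was stronger at these regions than at regions bivalent in both groups, but weaker than over all H3K4me3 peaks. Its median −log10 q at the 376 regions was 43.9, 46.5 and 44.4 in V16D/CTL against 46.3, 52.6 and 41.1 in V16D/H19, with overlapping groups. At regions bivalent in both groups it was 24.0, 23.4 and 23.8 in V16D/CTL. Over all H3K4me3 peaks of the V16D/CTL lists it was 94.1, 104 and 93.3, so the regions losing H3K27me3 lay between the other bivalent regions and the ordinary H3K4me3 peak. Here too a region has the value of its strongest peak, whereas the medians of the lists count every peak. Their median width of 1195 bases was close to the 1164 bases of regions bivalent in both groups.

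Where both marks had a peak in the same V16D/CTL replicate, the H3K4me3 summit itself was under the H3K27me3 peak at 32.0%, 39.7% and 30.3% of regions losing H3K27me3. At regions bivalent in both groups this share was 65.1%, 70.4% and 68.5%. Most of the lost overlaps were therefore between the flank of an H3K4me3 region and an H3K27me3 peak beside its summit. The same calls chose both classes, and a short overlap can fall under 2 lists more easily than a long overlap. Whether the classes differed beyond this selection was not tested. H3K27me3 was also followed outward from the summit. In V16D/H19, where the rule allows few peaks on the region itself, H3K27me3 peaks lay over 2.93%, 3.76% and 4.96% of the H3K4me3 summits of these regions, but over 12.4%, 13.0% and 12.8% of positions 1 kb away. In V16D/CTL the corresponding shares were 21.2%, 34.5% and 26.0% at the summit and 21.2%, 27.8% and 28.9% at 1 kb, so that the summit was higher in replicate 2, lower in replicate 3 and equal in replicate 1.

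**Figure D3:**
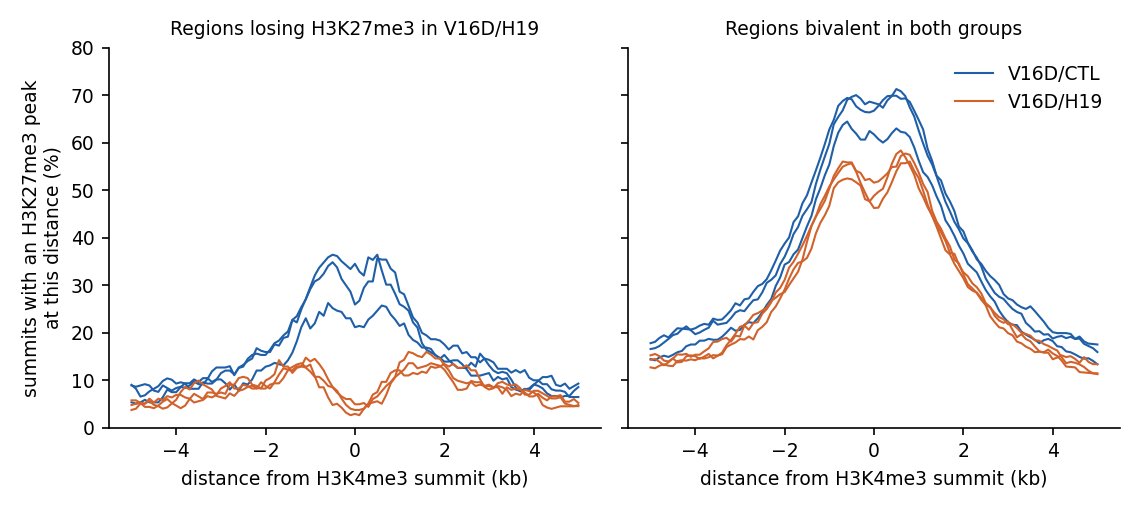
Share of H3K4me3 summits with an H3K27me3 peak of the same replicate at each distance (x axis, kb; 1 line per library), at regions losing H3K27me3 (left) and regions bivalent in both groups (right). At regions losing the mark the V16D/H19 lines dip to 2.93 to 4.96% at the summit, where the rule allows few peaks, and reach 12.4 to 13.0% at 1 kb, and at regions bivalent in both groups the V16D/H19 lines lie under the V16D/CTL lines at the summit.

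H3K27me3 was still called near many of the regions. Within 1 kb of the region, an H3K27me3 peak was present in at least 2 of 3 V16D/H19 lists at 168 of the 376 regions (44.7%), and within 5 kb at 225 (59.8%). No V16D/H19 list had a peak within 1 kb at 72 regions (19.1%) and within 5 kb at 53 (14.1%). These windows include the region itself, where 203 of the 376 had a peak in 1 V16D/H19 list. The rule allows no more than 1 list there, so at least 1 of the lists counted had its peak only beside the region. H3K27me3 was thus still called beside many regions that had lost it. Whether this was more frequent than around other H3K4me3 regions was not tested.

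Because the calls selected the regions, the loss was examined in libraries that had not been used for selection. Each replicate number was held out in turn, regions were chosen with the lists of the other replicates (a mark present in both remaining lists of a group), and H3K27me3 was then read in the held-out pair. Of the 388, 308 and 321 regions chosen as losing H3K27me3, 63.7%, 79.2% and 81.6% had an H3K27me3 peak in the held-out V16D/CTL list. In the held-out V16D/H19 list it was 44.1%, 49.7% and 56.7%. The V16D/CTL share was higher in all 3 rounds and the groups did not overlap, with a mean of 74.8% ± 9.75 (SD, n = 3) against 50.1% ± 6.33, a difference of 24.7 percentage points (exact two-sided permutation test over 20 assignments, p = 0.1, the smallest this design allows, so that it cannot reach the usual threshold). Both shares of a round were read on the same regions, and each held-out library helped to choose the regions of the other rounds. The shares are therefore not independent, and the p-value and SD are descriptive. Many of the chosen regions thus had an H3K27me3 peak in a V16D/H19 library that did not take part in the choice of that round.

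The same reading was made at other regions. Their shares lay at other levels, so the difference was not divided into a general and a specific part. At regions chosen as bivalent in both groups the held-out shares were 95.5%, 98.2% and 98.3% in V16D/CTL against 91.0%, 93.1% and 92.8% in V16D/H19. At regions chosen the opposite way, as having H3K4me3 in both groups and gaining H3K27me3 in V16D/H19 (80, 67 and 86 regions), the held-out shares were 50.0%, 67.2% and 68.6% in V16D/CTL against 42.5%, 58.2% and 58.1% in V16D/H19. The held-out V16D/CTL list therefore had the larger share even where selection favoured V16D/H19, and these regions did not keep their own direction in held-out libraries. H3K4me3 at the regions chosen as losing H3K27me3 was present in 99.0%, 97.4% and 98.4% of held-out V16D/CTL calls and 99.7%, 99.0% and 96.0% of V16D/H19 calls.

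**Figure D4:**
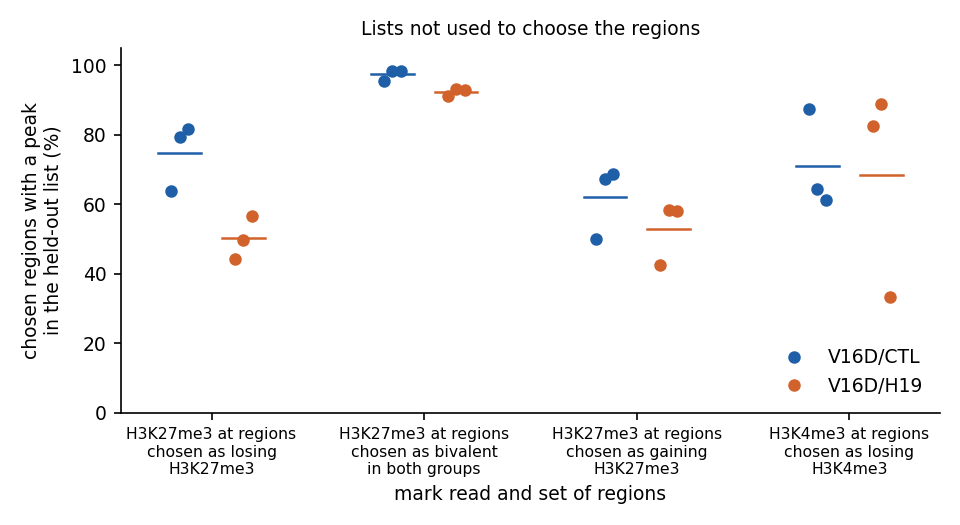
Share of chosen regions with a peak in the held-out list (y axis) for each of 3 held-out replicates (points; line, mean) in V16D/CTL and V16D/H19, for 4 sets of regions. H3K27me3 at regions chosen as losing it was at 63.7 to 81.6% in V16D/CTL against 44.1 to 56.7% in V16D/H19, and it was also lower in V16D/H19 at the other sets read for H3K27me3.

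Of the 376 regions losing H3K27me3, 236 (62.8%) lay within 1 kb of the start of a protein-coding gene, 25 at the start of another kind of gene, 59 inside a protein-coding gene and 56 outside any protein-coding gene. The promoter share was 70.1% among regions bivalent in both groups, 52.6% among those bivalent in V16D/H19 only and 44.3% among the 23519 regions bivalent in neither group. The 236 promoter regions served 250 genes, and 14 of them served more than 1. Chromosomes 1 and 5 held 36 of the 417 regions each, which was 1.48% of the merged regions of chromosome 1 and 2.85% of those of chromosome 5, beside 1.64% overall.

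The promoter regions with the largest falls in H3K27me3 strength were led by NOG and FGF9. At NOG (chr17:56592445-56594938), which encodes noggin, a secreted antagonist of bone morphogenetic proteins, −log10 q of H3K27me3 was 5.36, 5.55 and 5.46 in V16D/CTL. It was 2.14 in V16D/H19 replicate 3, and replicates 1 and 2 had no peak. All V16D/CTL values were above the single V16D/H19 value. H3K4me3 at NOG was at 39.6, 33.1 and 22.7 in V16D/CTL against 57.5, 63.3 and 36.5 in V16D/H19. H3K27me3 peaks within 1 kb of the NOG region were still present in 3 of 3 V16D/H19 lists. The authors' mean log2 concentration of H3K27me3 at NOG went from 7.85 in V16D/CTL to 7.21 in V16D/H19.

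At FGF9 (chr13:21671033-21671478), a fibroblast growth factor gene, H3K27me3 was at 6.02, 4.09 and 5.52 in V16D/CTL. V16D/H19 replicate 3 had a peak of 4.19, within the range of V16D/CTL, and the other replicates had none. The FGF9 region was narrow and weak in H3K4me3, at 3.84, 8.39 and 10.4 in V16D/CTL against 5.56, 8.45 and no peak in V16D/H19. It too had H3K27me3 within 1 kb in all 3 V16D/H19 lists. The authors' mean log2 concentration of H3K27me3 at FGF9 went only from 9.66 to 9.41.

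At BACH2 (chr6:90295504-90297207), a transcriptional repressor of lymphoid cells, H3K27me3 was at 4.55, 3.63 and 3.51 in V16D/CTL and at 1.48 in V16D/H19 replicate 2 only. At SLC6A3 (chr5:1444807-1445798), the dopamine transporter, it was at 4.46, 1.97 and 6.88 in V16D/CTL and at 3.23 in V16D/H19 replicate 3 only, so that the groups overlapped. The other 6 promoters of the 10 had no H3K27me3 peak in any V16D/H19 list. These were ADGRG2, an adhesion G protein-coupled receptor, TTPA, the carrier of vitamin E, A4GALT, a glycosphingolipid galactosyltransferase, TUBA1A, an alpha-tubulin of developing neurons, BMERB1 and the zinc finger gene BNC2. Within 1 kb, however, H3K27me3 was in 3 of 3 V16D/H19 lists at ADGRG2 and TUBA1A, in 2 at BNC2 and in 1 at A4GALT. Only TTPA and BMERB1 had it within 1 kb in 0 V16D/H19 lists.

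At TUBA1A (chr12:49187834-49189563) H3K27me3 was at 3.02, 2.77 and 3.10 in V16D/CTL. The authors' mean log2 concentration of H3K4me3 went from 7.58 to 8.05 at this promoter, and its −log10 q was 57.7, 65.1 and 62.9 in V16D/CTL against 131, 132 and 53.7 in V16D/H19, where replicate 3 was under all V16D/CTL values. Alpha-tubulin genes are near-identical in part, so reads at TUBA1A could be shared with its paralogues. At BNC2 (chr9:16869744-16871927) H3K27me3 was at 1.56, 4.78 and 2.16 in V16D/CTL, so that replicate 2 stood well above the others.

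**Figure D5:**
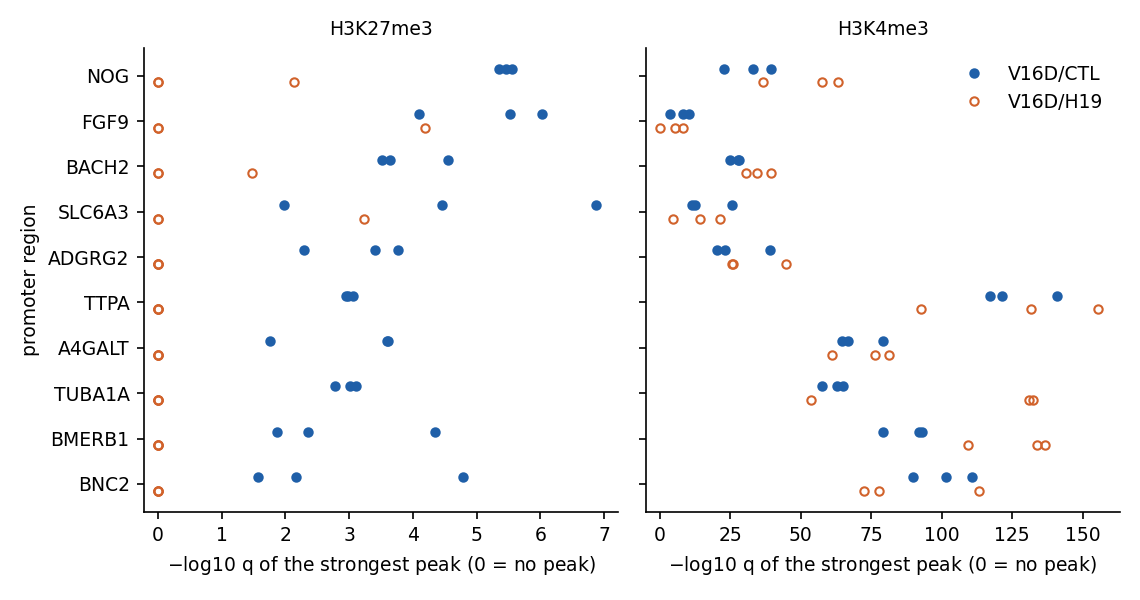
Strength (−log10 q of the strongest peak, 0 for none) of H3K27me3 (left) and H3K4me3 (right) at the 10 promoter regions with the largest fall in mean H3K27me3 strength, in 3 V16D/CTL (filled) and 3 V16D/H19 libraries (open). H3K27me3 was between 1.56 and 6.88 in V16D/CTL and was called in at most 1 V16D/H19 list, whereas H3K4me3 values overlapped between groups at 8 of the 10.

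The authors' tables of differential sites give a second measure, from read counts over consensus sites. It comes from the same libraries as the calls that chose the regions, so its direction is no separate support for the loss. A listed H3K27me3 site overlapped 42 of the 376 regions (11.2%), and the authors' mean concentration was lower in V16D/H19 at all 42, with a median difference of −0.865 (log2). At regions bivalent in both groups a listed H3K27me3 site overlapped 290 of 1131 (25.6%) and was lower in V16D/H19 at 288, with a median of −0.55. Of all 1140 listed H3K27me3 sites, 91.5% were lower in V16D/H19. The tables hold only sites that the authors selected as differential, so a region without one has no value here. A listed decrease in H3K27me3 was thus found at a smaller share of the regions that lost the call than of the regions that kept it.

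The 5 largest listed H3K27me3 differences among the 376 regions included 3 promoters. RGS17 (chr6:153129675-153131995), a regulator of G protein signalling, went from 5.42 to 3.81 on the authors' mean log2 scale. Its peaks were at −log10 q 1.74, 2.68 and 2.92 in V16D/CTL and absent from V16D/H19. PPP1R14C (chr6:150142792-150144201), an inhibitor of protein phosphatase 1, went from 6.57 to 4.98, with listed H3K4me3 going from 7.32 to 7.99 at the same promoter. The connexin gene GJB6 (chr13:20231777-20232638) went from 5.38 to 3.98. The remaining regions lay inside TNS1 (chr2:218009833-218010886), from 5.02 to 3.56, and outside any protein-coding gene at chr6:41372832-41373333, from 5.27 to 3.83. An H3K27me3 peak was still called in 1 V16D/H19 list at PPP1R14C (2.36), at GJB6 (1.99) and at the chr6:41372832-41373333 region (1.67). The last value was inside the range of V16D/CTL. The TNS1 region had no peak in any V16D/H19 list.

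A listed H3K4me3 site overlapped 38 of the 376 regions. The authors' mean was higher in V16D/H19 at 30 and lower at 8, with a median of 0.505 (log2), whereas 24.0% of all 1857 listed H3K4me3 sites were higher. At regions bivalent in both groups 134 of 169 listed regions were higher, a like direction. BMERB1 went from 7.64 to 8.15 and RGS17 from 8.33 to 8.69 in H3K4me3, both with the listed fall in H3K27me3 beside it.

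Developmental transcription factors, the classical bivalent genes, mostly kept both marks. Of 173 homeobox genes, 91 had a start at a merged H3K4me3 region, 28 of these at a region bivalent in both groups and 5 at a region losing H3K27me3. A start can lie within 1 kb of more than 1 region, so a gene can be in more than 1 class. The 28 and 5 together held only 32 different genes. The 5 were EMX1, ISL1, NKX2-8, ONECUT1 and VAX1, which specify forebrain, motor neuron, liver and eye lineages among others. Among 234 other developmental factors, 49 were at regions bivalent in both groups and 4 at regions losing H3K27me3, namely FOXA3, FOXD2, GLIS2 and NEUROG1. As a share of the genes bivalent in V16D/CTL, those at regions losing H3K27me3 made up 15.6% of homeobox genes and 7.55% of the other factors, beside 23.3% of all 1071 protein-coding genes bivalent in V16D/CTL. At regions bivalent in V16D/H19 only there were 5 homeobox genes and 5 of the other factors. Over all protein-coding genes, 164 were at such regions and 250 at regions losing H3K27me3. These shares were not tested.

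At ISL1, a LIM homeobox factor of motor neurons and endocrine cells, H3K27me3 was absent from V16D/CTL replicate 1 and at 2.94 and 3.51 in replicates 2 and 3, and it was at 3.14 in V16D/H19 replicate 3. The groups therefore overlapped. At ONECUT1, it was absent from V16D/CTL replicate 1, at 5.54 and 4.26 in the other replicates, and at 2.63 in V16D/H19 replicate 1. The authors' mean log2 concentration of H3K27me3 at ONECUT1 went only from 8.46 to 8.16. H3K4me3 at ONECUT1 was strong throughout, from 75.4 to 128 in V16D/CTL and from 70.7 to 107 in V16D/H19. At NKX2-8 H3K27me3 was present in all V16D/CTL lists (2.65, 2.07 and 3.08) and in no V16D/H19 list, with the authors' mean going from 5.18 to 3.86. At NEUROG1, a proneural factor, it was absent from V16D/CTL replicate 1, at 4.25 and 2.10 in the other replicates, and in no V16D/H19 list. Within 1 kb, H3K27me3 was in 3 V16D/H19 lists at ONECUT1 and NKX2-8, in 2 at ISL1 and in 0 at NEUROG1.

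Of 181 signalling genes, 123 had a start at a merged H3K4me3 region, 31 of them at a region bivalent in both groups and 8 at a region losing H3K27me3. The 8 were the ligands FGF9, FGF20, NRG2, NRG4 and INHBB, the antagonists NOG and CHRD, and the neurotrophin receptor NTRK2, and made up 21.1% of the 38 genes of the list bivalent in V16D/CTL, beside 23.3% of all protein-coding genes. The 31 and the 8 overlapped, so a gene at a region losing H3K27me3 also lay at a region bivalent in both groups. Regions bivalent in V16D/H19 only held 12 genes of the list. At NTRK2 H3K27me3 was at 1.92, 3.34 and 2.79 in V16D/CTL and in no V16D/H19 list, and H3K4me3 was at 41.4, 32.3 and 34.1 in V16D/CTL against 35.2, 45.6 and 32.8 in V16D/H19. At INHBB, an activin subunit gene, H3K27me3 was at 1.99 and 1.24 in V16D/CTL replicates 1 and 2 and nowhere else. At NRG2, a neuregulin, H3K27me3 was at 4.11 and 1.97 in V16D/CTL replicates 2 and 3 and nowhere else. At FGF20 it was at 1.92, 4.25 and 2.82 in V16D/CTL and at 1.63 in V16D/H19 replicate 2, while the authors' mean log2 concentration of H3K4me3 went from 5.29 to 6.07. Within 1 kb, H3K27me3 was in 2 V16D/H19 lists at NTRK2 and in 1 each at INHBB, NRG2 and FGF20. CHRD shared its region with THPO, and NRG4 with TMEM266, so these calls cannot be given to 1 gene of the pair.

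Among 281 genes of ion channels and neurotransmitter receptors, 9 were at regions losing H3K27me3 and 52 at regions bivalent in both groups. The 9 made up 14.8% of the 61 genes of the list bivalent in V16D/CTL, under the 23.3% of all protein-coding genes. Regions bivalent in V16D/H19 only held more genes of the list, 16. The 9 included the potassium channel genes KCNC1, KCND3, KCNH2 and KCNJ2, the calcium channel gene CACNA1B, and the receptor genes CHRNA3 and GRM2. At KCND3 the mark was at 1.49, 1.49 and 2.13 in V16D/CTL, close to the lowest values a list contains, and in no V16D/H19 list. KCNC1, of the fast-spiking neuron type of potassium channel, had H3K27me3 at 2.39 and 2.50 in V16D/CTL replicates 2 and 3 and at 2.09 in V16D/H19 replicate 3, with listed H3K4me3 going from 5.14 to 5.92. GRM2, a metabotropic glutamate receptor, had it at 2.94, 1.84 and 1.94 in V16D/CTL and in no V16D/H19 list. Within 1 kb, H3K27me3 was in 3 V16D/H19 lists at KCNC1 and GRM2 and in 1 at KCND3. Of 212 axon guidance and adhesion genes, 146 had a start at a merged H3K4me3 region, 30 of them at a region bivalent in both groups and 5 (DSCAM, NRP2, PCDH18, PCDHA4 and PCDHB2) at a region losing H3K27me3. The 5 made up 13.9% of the 36 genes of the list bivalent in V16D/CTL, also under the 23.3% of all protein-coding genes. Regions bivalent in V16D/H19 only held 8 genes of the list. At NRP2, a semaphorin co-receptor, H3K27me3 was at 2.31 and 2.79 in V16D/CTL replicates 1 and 2 and at 1.59 in V16D/H19 replicate 3. At PCDHA4 it was at 1.42 and 1.34 in V16D/CTL replicates 1 and 3 and in no other list. The clustered protocadherins PCDHA4 and PCDHB2 have close paralogues, so their reads may be shared.

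None of the 8 luminal and androgen-regulated genes examined, KLK2, KLK3, FKBP5, TMPRSS2, ABCC4, ZBTB10, KRT8 and KRT18, was at a bivalent region in either group. Of 19 neuroendocrine (NE) genes, many of which the study had chosen on these libraries, 16 were at a merged H3K4me3 region, 7 at a region bivalent in both groups and 3 at a region losing H3K27me3 (ENO2, FGF9 and ONECUT1). The 3 made up 33.3% of only 9 genes bivalent in V16D/CTL, beside 23.3% of all protein-coding genes. The 7 and the 3 overlapped, so a gene among the 3 also lay at a region bivalent in both groups. Regions bivalent in V16D/H19 only also held 3 genes of the list. ENO2 encodes neuron-specific enolase. Its H3K27me3 peaks were among the weakest, absent from V16D/CTL replicate 1 and at 1.46 and 1.28 in replicates 2 and 3. With lists of equal length or the stricter threshold, ENO2 had as many V16D/H19 as V16D/CTL lists with H3K27me3, so its loss rested on these weak peaks. H3K4me3 at ENO2 was from 108 to 138 in V16D/CTL and from 78.1 to 113 in V16D/H19.

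The 24 regions that lost the H3K4me3 call were of another kind. Their median width was 408 bases, 8 (33.3%) lay at a protein-coding promoter and 12 (50.0%) inside a gene, and H3K27me3 covered 78.0 to 87.3% of their bases in V16D/CTL against 66.5 to 81.4% in V16D/H19. H3K4me3 at these regions was weak, with a median −log10 q of 6.02, 8.11 and 5.57 in V16D/CTL. It went from 3 lists to 0 in 2 regions and from 2 to 1 in 11 (45.8%). In V16D/H19 the mark was called at 7, 9 and 1 of the 24 regions in replicates 1 to 3, so replicate 3 had the fewest. The H3K4me3 list of that library was also the shortest, with 20048 peaks beside 21934 and 21886 in the other V16D/H19 libraries, and its part in the result was not tested.

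In held-out libraries the fall in H3K4me3 calls was smaller than the spread between rounds. Of the 40, 45 and 18 regions chosen as losing H3K4me3, 87.5%, 64.4% and 61.1% had an H3K4me3 peak in the held-out V16D/CTL list and 82.5%, 88.9% and 33.3% in the V16D/H19 list. The groups overlapped, with means of 71.0% ± 14.4 (SD, n = 3) and 68.2% ± 30.4 and a difference of 2.78 percentage points (exact two-sided permutation test, p = 0.9). These shares too are not independent between rounds. The direction differed between rounds, and without replicate 3 the mean difference was −9.72 points.

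Among the 8 promoters in this class, KIAA1217 (chr10:23694885-23695242) had the largest fall, with H3K4me3 at −log10 q 8.20 and 9.54 in V16D/CTL replicates 1 and 2 and in no other list. At MLXIPL (chr7:73647839-73648266), a glucose-responsive transcription factor, it was at 7.96, 12.6 and 6.42 in V16D/CTL and at 10.1 in V16D/H19 replicate 2. MCAM, a cell adhesion molecule, had values of 1.64, 10.3 and 11.3 in V16D/CTL against 8.74 in V16D/H19 replicate 1. At APC2 the mean strength was higher in V16D/H19, where the 1 list with a peak had 8.24 and the V16D/CTL peaks had 2.97 and 4.23, although the call was lost by the number of lists. GPR162, SNTG1, C1QTNF4 and LAMP3 completed the 8. With lists of equal length, APC2 and LAMP3 had as many V16D/H19 as V16D/CTL lists with H3K4me3.

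A listed H3K4me3 site overlapped 3 of the 24 regions, each lower in V16D/H19 on the authors' mean log2 scale. One lay inside GATA3 (chr10:8050229-8050837), a luminal and lymphoid transcription factor, 4896 bases from its start, and went from 4.77 to 3.45. Its H3K4me3 was at −log10 q 3.84, 8.31 and 9.01 in V16D/CTL and in no V16D/H19 list, while H3K27me3 stayed from 5.25 to 5.97 in V16D/CTL and from 4.32 to 4.54 in V16D/H19. Another, inside SEMA3D (chr7:85186433-85186808), went from 4.86 to 3.43. The third, at chr9:92808898-92809354, went from 3.61 to 0.54. Of all 1857 listed H3K4me3 sites, 76% were lower in V16D/H19. The 24 regions were chosen on lost H3K4me3 calls in the same libraries, so this direction is no separate support for the loss.

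The 17 regions that lost both calls were narrow too, with a median of 488 bases, and 3 lay at a protein-coding promoter, those of UNC5C, RPRM and TNC. The netrin receptor gene UNC5C (chr4:95549159-95550021) had H3K4me3 at 9.15, 7.13 and 3.77 in V16D/CTL and at 7.33 in V16D/H19 replicate 1. Its H3K27me3 was at 2.15, 2.16 and 1.70 in V16D/CTL against 1.80 in V16D/H19 replicate 3. The largest summed falls were at regions away from promoters, inside EXOC3L4 (chr14:103104626-103105080), at chr15:75801939-75802277 and inside ADGRA1 (chr10:133127483-133127741). At the region on chromosome 15 H3K4me3 was at 5.32, 5.81 and 11.2 in V16D/CTL and in no V16D/H19 list, and the authors' mean went from 4.18 to 2.39. A region outside any protein-coding gene at chr14:70223451-70223944 had H3K4me3 at 8.18, 7.94 and 8.94 in V16D/CTL and at 7.69 in V16D/H19 replicate 1, so its call was lost with 1 value left near those of V16D/CTL.

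The membership of these classes depended on the strength asked of a peak. When only peaks with −log10 q of at least 3 were counted, 420 regions were bivalent in V16D/CTL only, close to the 417 above, but 52 of the 417 (12.5%) were among them. At 362 of the 417 (86.8%) H3K27me3 then fell under 2 lists in V16D/CTL itself, so that the region was no longer bivalent there. Of the 420 regions, 368 (87.6%) were bivalent in both groups under the deposited threshold. Which regions made up the class therefore depended on the threshold at which H3K27me3 peaks were counted. With lists cut to equal length, 353 of the 417 (84.7%) were kept.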

How the data were processed

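ChIP-seq libraries (75 bp single-end) of H3K4me3 and H3K27me3, with an input per replicate, were made from 3 V16D/CTL and 3 V16D/H19 replicates. The authors called peaks per library with MACS2, narrow for H3K4me3 and broad for H3K27me3, on hg38 per the labels. The deposited lists hold per peak the fold over input (a ratio), −log10 p and −log10 q. The authors' 2 tables of differential sites (DiffBind, ChIPseeker) hold sites they selected, and only the log2 mean concentration per group, the authors' mean with no SD, was used. Their fold, p and FDR columns were not. Read depth per library is not used here, and the number of peaks stands in its place.

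Merging, overlaps and tests were done in Python 3.11.15 with pandas 2.3.3, numpy 2.4.6 and scipy 1.17.1. A peak on a region shares at least 1 base, and a mark is present in a group with at least 2 of 3 lists. Gene starts came from RefSeq GRCh38.p14, 1 per gene, for the 19675 of 20056 protein-coding genes whose strand was given by the RefSeq promoter table or, by symbol, by GENCODE, and a promoter is within 1 kb of one. The rule was checked on simulated lists. The members, the gene lists and the tests were chosen with earlier results of these data known, and families whose symbols end in a letter alone, such as UNC5C and INHBB, were added to the lists after values were seen.

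Named regions were, by a fixed rule, the 10 promoters losing H3K27me3 and 8 losing H3K4me3 with the largest fall in mean −log10 q, the 5 largest differences in the authors' mean concentration per class, the 5 regions losing both marks with the largest summed fall, and all members at promoters of listed genes. A few regions that this rule names are not reported here. RPRM and TNC were named after their values were seen. Replicates were transduced in triplicate, and the only tests are on held-out libraries. Alternatives were equal list lengths, a stricter threshold, a wider overlap, stricter and looser list rules, consensus regions, other promoter definitions, a replicate block and leaving out each replicate.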

Additional observations from a re-analysis of the deposited data

How the results depend on the processing

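The number of regions bivalent in V16D/CTL only stayed within 1.5 times of 417 with equal list lengths, a stricter threshold, a wider overlap, a looser list rule and consensus regions, although the stricter threshold chose mostly different regions. Requiring 3 of 3 lists in V16D/CTL and 0 of 3 in V16D/H19 left 52 regions, of which 50 lost H3K27me3, 2 lost H3K4me3 and 0 both, beside 712 bivalent in both groups and 58 in V16D/H19 only. The stricter threshold gave 11 regions losing H3K4me3, 11 losing both, 388 bivalent in both groups and 127 in V16D/H19 only. The looser rule gave 55 regions losing H3K4me3 and 587 bivalent in V16D/H19 only. Leaving out 1 replicate of a group, with both of its remaining lists then required for a mark to be present, lowered the count without a V16D/CTL replicate and raised it without a V16D/H19 replicate, by construction. The totals ranged from 210 (without V16D/CTL replicate 2 or 3) to 644 (without V16D/H19 replicate 2), the regions losing H3K27me3 from 191 to 541, those losing H3K4me3 from 10 to 71, those losing both from 6 to 48, those bivalent in both groups from 904 to 985 and those in V16D/H19 only from 137 to 461.

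The promoter share of 59.2% (95% Wilson interval 54.5 to 63.8%, counting error only) was 64.1% with an overlap of at least 200 bases, 66.2% with starts of genes of any kind and 67.9% with alternative RefSeq starts added, an alternative chosen after seeing the data, and ranged from 58.6 to 64.3% without 1 replicate. The held-out difference in H3K27me3 was between 22.3 and 27.2 points without 1 replicate, and 22.6, 42.7 and 23.9 points with equal lengths, the stricter threshold and the wider overlap. That in H3K4me3 was between −9.72 points (without replicate 3) and 16.4 points. Same-numbered libraries did not deviate together (correlation of log2 fold deviations from −0.0094 to 0.026 over sites called in 6 of 6 lists), so no pairing by replicate number was seen at these sites. Sites called in fewer lists were not examined in this way, so pairing is not excluded. With the replicate block, the difference of 24.7 points in H3K27me3 had p = 0.25 and that of 2.78 points in H3K4me3 p = 0.75 (exact permutation over 8 sign patterns, smallest possible 0.25). Here too the rounds are not independent. Of 62 named regions, 62 had more V16D/CTL than V16D/H19 lists with the lost mark, as the rule requires. With equal lengths, the stricter threshold and the wider overlap 59, 38 and 60 did so, with 0 reversed. These settings count the same calls again, so this is no separate support for the loss. Read depth was not used, so whether a missing peak reflects depth was not tested.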
